A study of Rattus norvegicus with 2 samples.

Results

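The 8 genes described here are 5 members of the S100 family (S100g, S100a4, S100a8, S100a9 and S100a10) and 3 annexins (Anxa1, Anxa2 and Anxa5), measured in rat duodenal mucosa. Every probe set of the rat U34A array, an Affymetrix oligonucleotide array, whose annotation names 1 of these genes was taken, which gave 11 of the 8799 probe sets and 8 of the 4736 genes named on the array by a single symbol, with 2 probe sets each for S100g, Anxa1 and Anxa5. Each probe set is given singly. The immobilized group was 1 male Wistar rat, aged 15 weeks, kept in an immobilization cage for 2 weeks. The control group was 1 male Wistar rat of the same age that was not immobilized and lived in a metabolic cage for those 2 weeks. The source of the RNA is given as duodenal epithelial cells in the labels and as mucosa in the design text. No pooling of RNA is mentioned in the sources used here. With 1 array per group, no difference can be set against the spread between animals, no test between the groups was possible and no p-value is given. The probe sets of 1 gene lie on the same 2 arrays and are not replicates of a condition. All signals below are in the arbitrary units of the array after scaling by a factor of 1.016 for the immobilized rat, and all log2 ratios are immobilized over control.

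S100 proteins are small proteins that bind calcium through paired EF-hand loops, and most act as dimers that change shape when calcium is bound. S100g, also called calbindin-D9k, works as a monomer that carries and buffers calcium in the cytosol of duodenal enterocytes, and its gene is a classical target of the vitamin D receptor there. Annexins are a separate family that binds acidic phospholipids of membranes when calcium rises, and S100a10 joins 2 copies of annexin A2 into a complex at the plasma membrane.

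Of the 11 probe sets, 5 exceeded the signal floor of 39.9, the median of all signals, on both arrays, and the other 6 exceeded it on neither. The measured probe sets were both of S100g and 1 each of S100a10, Anxa2 and Anxa5, whereas S100a4, S100a8, S100a9 and Anxa1 had none above the floor. Among the 5 measured probe sets, 3 had a lower and 2 a higher signal in the immobilized rat, and log2 ratios ran from -0.99 to 0.13. The median over them was -0.30, where the median over all 4105 measured probe sets was set to 0 by the scaling. None of the 5 was at least 2-fold lower, a call met by 0.853% of all measured probe sets, although 1 of the 5, the rc_AI013389_at probe set of S100g, was past this limit with the signals as deposited or scaled by trimmed mean (log2 ratio -1.02 in each). None was at least 2-fold higher, a call met by 2.34%. At 1.5-fold, 1 of the 5 was lower (S100g, at rc_AI013389_at), against 5.46% of all measured probe sets, and none was higher, against 8.89%. These counts over 5 probe sets are a description only.

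**Figure D1:**
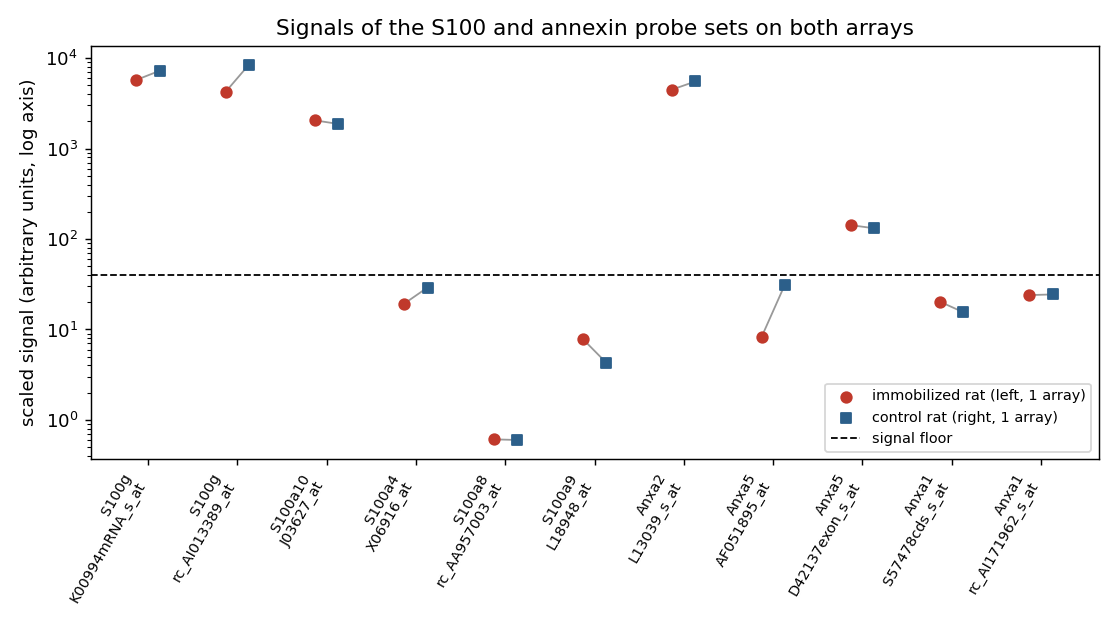
Scaled signal (arbitrary units, log axis) of each S100 and annexin probe set, with the immobilized rat's array as a circle on the left and the control rat's as a square on the right, and the floor of 39.9 as a dashed line. Each point is 1 array. The pairs of S100g, S100a10 and Anxa2 and 1 pair of Anxa5 lie above the floor, and the other 6 pairs lie below it.

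The calcium carrier S100g had a lower signal in the immobilized rat at both of its probe sets, but by different amounts. Probe set K00994mRNA_s_at had a signal of 5742 in the immobilized rat and 7243 in the control rat. Probe set rc_AI013389_at had a signal of 4246 in the immobilized rat and 8459 in the control rat. The immobilized rat was thus the lower of the 2 at each probe set, 1.26-fold (log2 ratio -0.34) at K00994mRNA_s_at and 1.99-fold (log2 ratio -0.99) at rc_AI013389_at, which lies just inside the 2-fold limit. The mean of the log2 ratios was -0.66, which is a 1.6-fold lower signal. In a tissue extract, fewer enterocytes and less of the RNA per enterocyte cannot be told apart.

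The error within an array can be read from genes with several probe sets, whose log2 ratios scattered around their gene's mean with an SD of 0.31 (696 genes, 1570 probe sets). For probe sets with a mean signal of 1000 or more, this technical SD was 0.22 (94 genes, 202 probe sets). Both SDs include genes whose probe sets are named for the same sequence entry, whereas those of S100g are named for different entries. They may therefore be too small for S100g, and the multiples of them too large. The log2 ratio at rc_AI013389_at was 3.21 times the technical SD of all probe sets and 4.54 times that of the bright ones. At K00994mRNA_s_at it was 1.08 and 1.53 times these SDs. This error leaves out the difference between any pair of rats, so neither multiple is a test of immobilization.

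The gap between the S100g probe sets was 0.66 on the log2 scale. It was 1.5 times the SD expected of a difference between probe sets of 1 gene, or 2.13 times that for bright probe sets. Among 58 genes with 2 probe sets of mean signal 1000 or more, 5 had a gap at least this wide (8.62%), S100g included, and the median gap was 0.11. The other 4, named after their values were seen, were Cdh17 (0.77), Dlst (0.96), Mme (1.03) and Akr1c14 (1.04). Among all 543 genes with 2 measured probe sets, 52 (9.58%) had a gap at least as wide. Both sets of genes include pairs of probe sets named for the same sequence entry, so the gap of S100g may be less unusual than these shares show. The probe sequences and the parts of the S100g transcript they match were not analysed here.

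**Figure D2:**
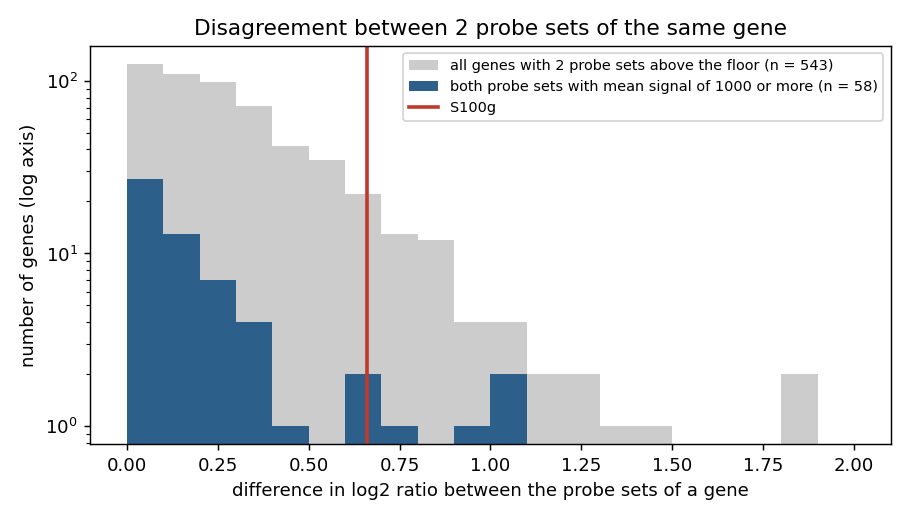
Histogram of the difference in log2 ratio between the 2 probe sets of a gene, with the number of genes on a log axis. Grey bars count all 543 genes with 2 probe sets above the floor, blue bars the 58 whose probe sets both had a mean signal of 1000 or more, and the red line marks S100g at 0.66.

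The brightest probe sets as a class had lower signals on the immobilized rat's array. Those between 1000 and 3000 signal units had a median log2 ratio of -0.01. Of the 50 with the highest mean signal, a number chosen after the data were seen, 46 had a log2 ratio below 0, with a median of -0.21. Both S100g probe sets were among these 50. At K00994mRNA_s_at the ratio was -0.34, and 7 of the 50, itself included, were at or below it. At rc_AI013389_at the ratio of -0.99 was the lowest of the 50, and the next was -0.42. It was also the lowest of the 200 brightest, where the next was -0.54. After quantile normalization, which forces the same distribution on both arrays, the log2 ratios of S100g were -0.82 at rc_AI013389_at and -0.10 at K00994mRNA_s_at. After loess scaling, which removes a trend of the ratio with the signal, they were -0.86 and -0.19. In both settings rc_AI013389_at was still the lowest of the 50 brightest probe sets. The size of the difference at K00994mRNA_s_at therefore depended on the scaling, with a range of -0.36 to -0.10, more than that at rc_AI013389_at, with a range of -1.02 to -0.82.

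**Figure D3:**
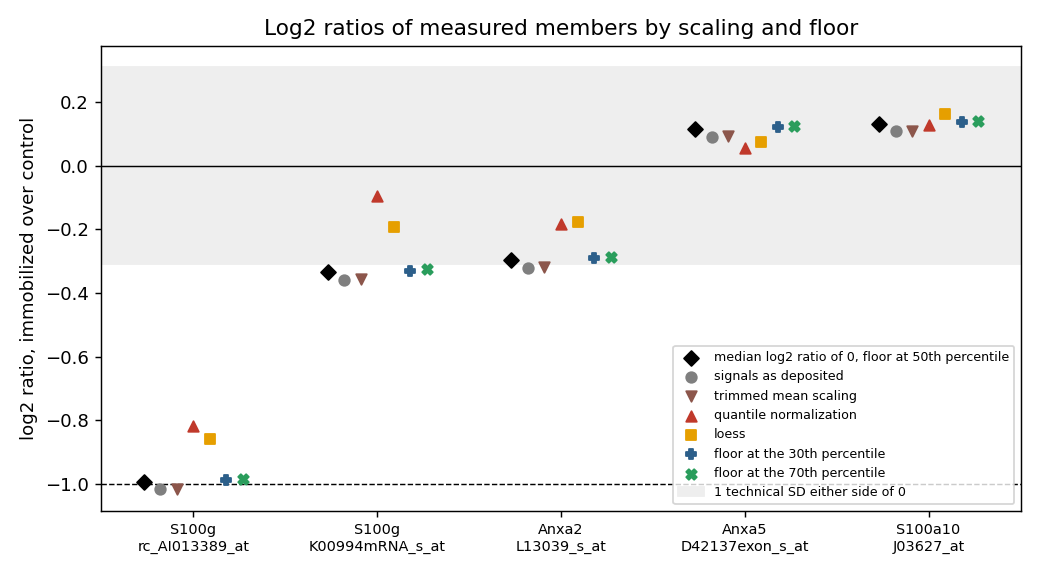
Log2 ratio, immobilized over control, of the 5 measured member probe sets under 7 settings, each shown by its own symbol. The grey band is 1 technical SD (0.31) either side of 0 and the dashed line is 2-fold lower. The rc_AI013389_at probe set of S100g stays between -1.02 and -0.82, while K00994mRNA_s_at and Anxa2 move towards 0 after quantile normalization and loess.

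Values of marker genes and array controls are given beside those of S100g. Marker genes of villus enterocytes, the cells that make S100g, had 33 of 35 probe sets above the floor on both arrays, so that the labelled tissue carried its defining genes. Of these 33, 28 had a lower signal in the immobilized rat and 5 a higher one, with a median of -0.28 and summed signals of 96397 in the immobilized rat and 112171 in the control rat. Among the 100 brightest probe sets of any kind, some of them villus markers, 83 had a log2 ratio below 0. Between 1000 and 3000 signal units, where other villus markers lie, 52.0% of the 500 measured probe sets were below 0. Whether the share of lower villus markers is particular to enterocyte genes was not tested. The median of the villus markers was -0.17 after quantile normalization and -0.12 after loess. Markers of crypt and dividing cells were higher at 15 of 16 probe sets, with a median of 0.43 and summed signals of 3068 in the immobilized rat and 2233 in the control rat. Exocrine pancreas markers were higher at 19 of 21, with a median of 0.76 and summed signals of 20585 in the immobilized rat and 15022 in the control rat. The largest part of each sum was Zg16, a lower marker named after its values were seen, with 5248 in the immobilized rat and 6825 in the control rat. No probe set of these 3 lists was at 0 on either array. Hybridisation controls, RNAs added to each sample, had less signal for the immobilized rat at 7 of 9 probe sets, with a median of -0.21. The ratio of the 3′ to the 5′ probe set of beta-actin was 1.33 on the immobilized rat's array and 1.19 on the control rat's, and that of GAPDH was 1.05 on each. Log2 ratios, immobilized over control, were -0.35 at the 3′ and -0.50 at the 5′ probe set of beta-actin, and -0.30 at each of GAPDH. The part of any of these in the S100g values was not tested.

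S100a10, the partner of annexin A2, had a signal of 2050 in the immobilized rat and 1872 in the control rat at J03627_at. The immobilized rat was the higher of the 2, by 1.09-fold (log2 ratio 0.13), which was 0.42 times the technical SD. Between 1000 and 3000 signal units, where this probe set lies, the 500 measured probe sets had a median log2 ratio of -0.01 and an SD of 0.51. The ratio of S100a10 lay between 0.11 and 0.16 over the settings tried. For this probe set no difference beyond the array error was measured.

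Anxa2, the annexin that binds S100a10 and links membranes to actin, had a signal of 4497 in the immobilized rat and 5526 in the control rat at L13039_s_at. It was lower in the immobilized rat by 1.23-fold (log2 ratio -0.30), or 0.96 times the technical SD of all probe sets and 1.36 times that of bright ones. Among the 100 brightest probe sets, which include it, the median was -0.18, and 17 were at or below the ratio of Anxa2. After quantile normalization or loess its log2 ratio was -0.18. The log2 ratios of Anxa2 and S100a10 thus had opposite signs and differed by 0.43, which was 0.98 times the SD of a difference between probe sets of 1 gene, or 1.38 times that for bright probe sets. This shows neither equal nor unequal change of the 2 partners.

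Anxa5, which binds phosphatidylserine on membranes and is widely used to stain dying cells, had 1 probe set above the floor. At D42137exon_s_at its signal was 142.4 in the immobilized rat and 131.5 in the control rat, a 1.08-fold higher signal in the immobilized rat (log2 ratio 0.11, 0.37 times the technical SD). These signals were 3.56 times the floor in the immobilized rat and 3.29 times in the control rat, so this ratio is less certain than those of the brighter probe sets. The other probe set, AF051895_at, had signals of 8.23 in the immobilized rat and 31.1 in the control rat, both below the floor, and no ratio was formed. It gives no check of the first.

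The windows around the gene starts of Anxa2 and Anxa5 are shown because they are the members above the floor for which RefSeq windows were given. A window held 250 bases before to 50 bases after the start, and 5 of the 8 members had one (S100a4, S100a9, Anxa1, Anxa2 and Anxa5). Capitals mark matches, on either strand, to the TATA box TATAAA, the GC box GGGCGG, the AP-1 site TGANTCA and the nuclear receptor half-site AGGTCA. No match overlapped another in either sequence. The Anxa2 window is chr8:78986002-78986301 on the plus strand and the Anxa5 window chr2:121272647-121272946 on the minus strand, in RefSeq build GRCr8, each printed 5′ to 3′ along its gene.
Anxa2: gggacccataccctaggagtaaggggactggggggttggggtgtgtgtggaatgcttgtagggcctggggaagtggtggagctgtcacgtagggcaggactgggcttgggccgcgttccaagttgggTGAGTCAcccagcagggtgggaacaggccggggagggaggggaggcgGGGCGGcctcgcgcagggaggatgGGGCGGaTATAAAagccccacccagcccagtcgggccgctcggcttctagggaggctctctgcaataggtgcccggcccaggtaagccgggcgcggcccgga
Anxa5: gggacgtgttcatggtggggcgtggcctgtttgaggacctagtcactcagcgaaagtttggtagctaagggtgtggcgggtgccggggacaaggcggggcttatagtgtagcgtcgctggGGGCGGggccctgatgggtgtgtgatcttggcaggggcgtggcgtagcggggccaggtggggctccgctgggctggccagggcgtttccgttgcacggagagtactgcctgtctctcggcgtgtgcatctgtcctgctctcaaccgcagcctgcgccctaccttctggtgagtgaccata
The Anxa2 window held 1 TATA box, whose first base lies at -45 from the start, 2 GC boxes at -76 and -52 and 1 AP-1 site at -123. The Anxa5 window held 1 GC box at -130 and no match to the TATA box or the AP-1 site. GC content was 68.0% for Anxa2 and 64.3% for Anxa5. The windows of S100a4, S100a9 and Anxa1 each held 1 TATA box, and that of S100a4 also held the half-site AGGTCA at -24, which none of the other 4 windows held. Over all 33469 windows of this length, 14.2% held TATAAA, 33.1% GGGCGG, 7.33% TGANTCA and 16.2% AGGTCA. These matches describe letters in a window and are not shown to be sites in use.

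The members typical of leukocytes and connective tissue cells were not above the floor. S100a8 and S100a9 form calprotectin, an abundant calcium- and metal-binding protein of neutrophils. S100a8 had signals of 0.61 in the immobilized rat and 0.60 in the control rat, and S100a9 had 7.83 in the immobilized rat and 4.30 in the control rat. S100a4, which is made by fibroblasts, macrophages and other motile cells, had 19.3 in the immobilized rat and 29.1 in the control rat. Anxa1, a glucocorticoid-responsive annexin that acts through formyl peptide receptors to dampen neutrophil entry, had 24.0 in the immobilized rat and 24.4 in the control rat at rc_AI171962_s_at. At S57478cds_s_at, Anxa1 had 20.2 in the immobilized rat and 15.5 in the control rat. Over these and the dim Anxa5 probe set, signals ran from 0.61 to 24.0 in the immobilized rat and from 0.60 to 31.1 in the control rat. A signal under the floor has no order between the arrays, and it does not show that the RNA was absent.

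Most neutrophil markers with a probe set were below the floor too. Of 20 listed markers 8 had a probe set, and 6 of the 8 were below the floor on both arrays, among them the integrin gene Itgam (6.0 in the immobilized rat, 10.6 in the control rat) and the chemokine receptor gene Cxcr2 (4.17 in the immobilized rat, 3.30 in the control rat). The other 2 were higher in the immobilized rat, the defensin gene RatNP-3b at a log2 ratio of 1.44 and the chemokine receptor gene Cxcr1 at 0.25. RatNP-3b had 145.5 in the immobilized rat and 53.5 in the control rat, the latter near the floor of 39.9. Cxcr1 was near the floor on both arrays, with 56.0 in the immobilized rat and 47.0 in the control rat, and its ratio was within the technical SD of 0.31. The summed signals of the 8 were 268 in the immobilized rat and 191 in the control rat, and none was at 0. Monocyte and macrophage markers had 7 of 15 probe sets above the floor, 3 higher and 4 lower in the immobilized rat. At least 2-fold higher was Lyz2, a lysozyme gene, with 953 in the immobilized rat and 465 in the control rat (log2 ratio 1.03). Their summed signals were 5618 in the immobilized rat and 5848 in the control rat, but 1948 in the immobilized rat and 1400 in the control rat without Lgals3, a galectin gene that enterocytes also express. Lyz2 made up most of the difference that remained without Lgals3. Fibroblast markers had 14 of 34 above the floor, 8 higher and 6 lower, with sums of 4956 in the immobilized rat and 5373 in the control rat, but of 1940.4 in the immobilized rat and 1619 in the control rat without Sparc. The direction of both sums thus rests on 1 gene each, and both genes are named after their values were seen.

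Other S100 and annexin genes on the array differed by less than 1.5-fold where they could be measured. Of the 13 listed S100 genes outside the members, 2 had probe sets, S100a1 and S100b. S100a1, best known from heart muscle, was measured at 1 of its 4 probe sets, U26356mRNA_s_at, with 140.2 in the immobilized rat and 193.7 in the control rat (log2 ratio -0.47). Its other 3 probe sets and both of S100b, a glial S100 protein, were below the floor, as was 1 probe set annotated to S100a7l2, a gene outside the list. Of the 9 listed annexins, 4 had probe sets. Anxa4, an annexin of epithelial cells, had 1052 in the immobilized rat and 1401 in the control rat (log2 ratio -0.41, 1.34 times the technical SD of all probe sets and 1.89 times that of bright ones). Anxa6 was measured at X86086_g_at, with 86.1 in the immobilized rat and 68.8 in the control rat (log2 ratio 0.32), and was below the floor at X86086_at. Anxa7 had 64.6 in the immobilized rat and 69.5 in the control rat (log2 ratio -0.10), and both probe sets of Anxa3 were below the floor. The annexins above the floor, members included, thus lay on both sides of 0, with Anxa2, Anxa4 and Anxa7 below and Anxa5 and Anxa6 above.

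**Figure D4:**
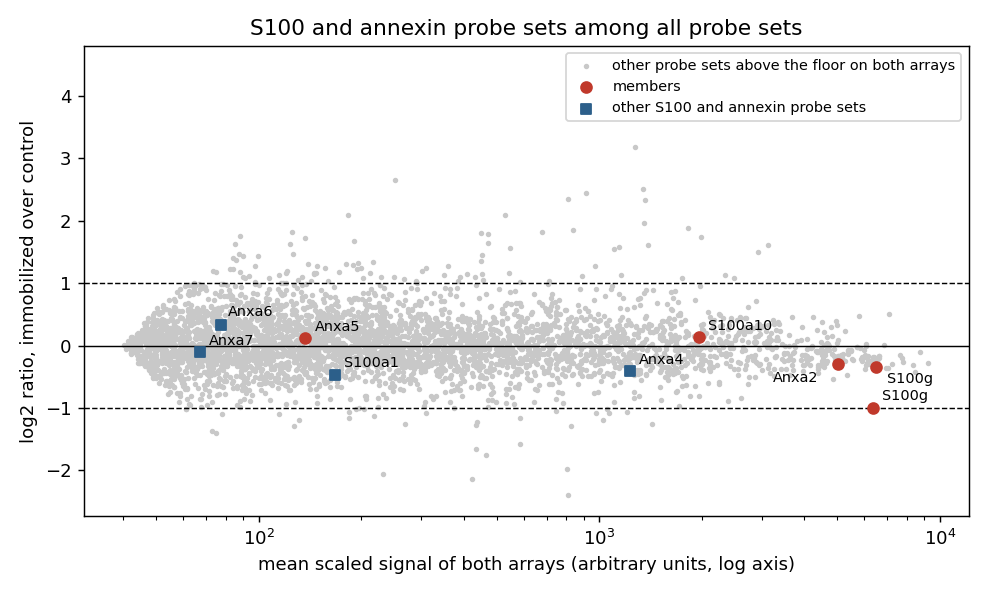
Log2 ratio, immobilized over control, against the mean scaled signal of both arrays (log axis) for the 4105 probe sets above the floor on both. Members are red circles, other S100 and annexin probe sets blue squares, and dashed lines mark 2-fold. The brightest probe sets lie mostly below 0, and the lower S100g point, at -0.99, lies below the others of similar brightness.

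Genes that bind S100 proteins or annexins, or receive their signals, were measured at 7 of 21 probe sets, 6 of them lower and 1 higher in the immobilized rat, with a median of -0.16. At least 2-fold lower were 2 of the 7, a call met by 0.853% of all measured probe sets. Cd36, a fatty acid carrier that in human cells also binds the S100a8 and S100a9 complex with its lipid cargo, had 213 in the immobilized rat and 718 in the control rat at AB005743_g_at, while its other probe set, AB005743_at, was below the floor on both arrays. Cftr, a chloride channel reported in human cells to associate with annexin A2 and S100a10, had 49.6 in the immobilized rat, close to the floor of 39.9, and 106.5 in the control rat. Sri, which encodes the calcium-binding protein sorcin, had a log2 ratio of -0.28, and the urokinase receptor gene Plaur had -0.16. The tissue plasminogen activator gene Plat and the plasminogen gene Plg, whose products meet on the annexin A2 complex, were below the floor on both arrays. So were the probe sets of Ager and Tlr4, receptors for extracellular S100a8 and S100a9.

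The list of calcium transport and vitamin D genes other than S100g was measured at 19 of 50 probe sets, 7 higher and 12 lower in the immobilized rat, with a median of -0.07, which turned to 0.039 for a floor at the 30th percentile. None was at least 2-fold either way, and the ratios ran from -0.85 to 0.92. The ends of that range were the receptor partners Rxrb and Rxra, with signals of 48.1 and 84.5 in the immobilized rat and 86.7 and 44.7 in the control rat, so both lie near the floor. The ratio of S100g at rc_AI013389_at lay outside this range, and that at K00994mRNA_s_at inside it. Next farthest from 0 in the list were Slc8a1 with -0.67 and Cyp27a1 with 0.49 and 0.26 at its probe sets. Vdr, the vitamin D receptor gene, had 470 in the immobilized rat and 517 in the control rat (log2 ratio -0.14). Regulators of these families were lower at 6 of 7 measured probe sets, with a median of -0.44. Nfkbia, the inhibitor of NF-kB, had log2 ratios of -0.83 and -0.57 at its 2 probe sets, and Nr3c1, the glucocorticoid receptor gene, had -0.75 and -0.44. The ratio of -0.75 for Nr3c1 came from 41.1 in the immobilized rat, close to the floor of 39.9, and 68.9 in the control rat. That of -0.44 came from 89.3 in the immobilized rat and 121.6 in the control rat. Stat3 had 0.37. With 1 probe set per gene the median of the regulators was -0.05.

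**Figure D5:**
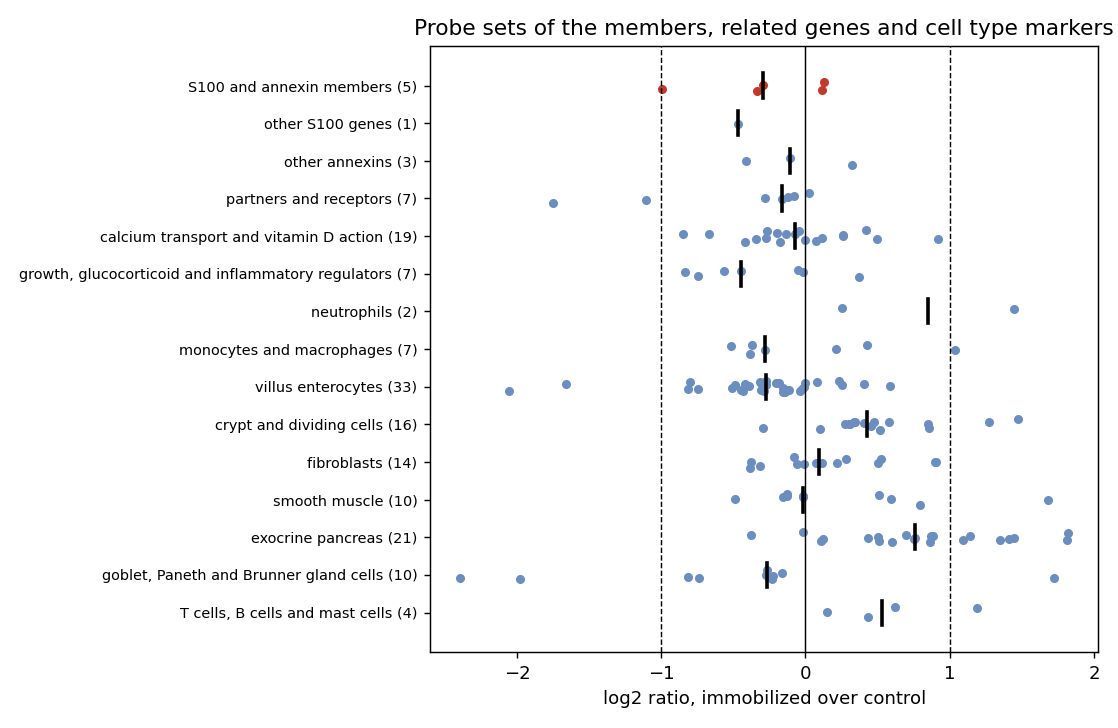
Log2 ratios, immobilized over control, of each measured probe set (points) and their median (vertical bars) for the members, the related gene lists and the cell type marker lists, with the number of probe sets in brackets. Dashed lines mark 2-fold. The members' median is -0.30, that of villus enterocyte markers -0.28, and those of crypt and exocrine pancreas markers 0.43 and 0.76, and endothelial markers had no probe set above the floor on both arrays.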

How the data were processed

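RNA of duodenal mucosa from 1 immobilized and 1 control rat was measured on 1 array each. Each deposited value is the intensity of a probe set on a linear scale, made by the authors with the manufacturer's software version 4.0, per the series' design text, or MAS5, per the submitters' processing notes. Which signal algorithm was used is not settled by these sources, and detection calls were not used here. The members and gene lists were chosen with earlier results of these data known.

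Probe sets were named through the array annotation. Current symbols were looked up by gene ID, and the ID was found for 6985 of 7006 probe sets with 1 symbol. The 308 probe sets with several symbols were not named. A factor of 1.016 for the immobilized rat brought the median log2 ratio, over features exceeding the floor, to 0. The floor was the 50th percentile of all signals. Ratios were formed only where both arrays exceeded it. The 59 array controls entered no count. All member probe sets are named, as are the other S100 genes and annexins on the array. Each other list adds at most 4 genes, those with ratios farthest from 0. Where a gene falls outside this rule it is described as named after its values were seen, or is given for its role or for being below the floor. The 2 arrays give 1 difference, so no gene was sought for a pattern like that of a member. Having 1 array per group limits all precision. Other settings tried were unscaled signals, scaling to a trimmed mean (2% off each end), quantiles, a loess curve of span 0.3, a floor at the 30th or the 70th percentile, thresholds of 1.5-fold and 3-fold, and 1 probe set per gene. The procedure was tested on simulated data. The software was matplotlib 3.10.9, statsmodels 0.14.6, pandas 2.3.3, numpy 2.4.6 and Python 3.11.15.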

Additional observations from a re-analysis of the deposited data

How the results depend on the processing

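No paired analysis was possible because each group had 1 array. The sign of the log2 ratio of each of the 5 measured member probe sets was the same under the 6 alternative scalings and floors, where the members' median ranged from -0.32 to -0.10. With 1 probe set per gene, which leaves out rc_AI013389_at of S100g, that median was -0.09. The number of members at least 2-fold lower was 0, but 1 with the signals as deposited and 1 with trimmed mean scaling, as it was with the threshold at 1.5-fold, in each case rc_AI013389_at of S100g. Over all probe sets, 96 were at least 2-fold higher and 35 lower. These counts were 214 and 127 for a floor at the 30th percentile, 49 and 22 for one at the 70th, 365 and 224 at 1.5-fold, and 25 and 6 at 3-fold. List medians that moved by more than the technical SD were those of regulators (-0.051 with 1 probe set per gene), neutrophils (0.058 with the 30th percentile as floor), monocytes and macrophages (0.041 at the 30th and 0.22 at the 70th percentile) and, at the 70th percentile, fibroblasts (-0.34), goblet, Paneth and Brunner gland cells (-0.73) and T cells, B cells and mast cells (0.16). With the floor at the 30th percentile, 12.6, 3 more member probe sets were measured, S100a4 with -0.59 and Anxa1 with -0.02 and 0.39. These signals, under 30 units on each array, limit the ratios by their background, and the spread between animals was not measured.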
